A study of Mus musculus with 6 samples.

Results

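Globin RNA was about 3-fold more abundant in intestinal epithelial samples labelled Git2-knockout than in wild-type samples. Described here are the adult globin genes and a pair of genes that serve red blood cells, 6 genes of the 18159 in the deposited table, picked by their symbols: the beta globins Hbb-bs and Hbb-bt, the alpha globins Hba-a1 and Hba-a2, the heme enzyme gene Alas2 and the anion exchanger gene Slc4a1. The alpha globins, summed over their copies, were 3.10-fold higher (95% interval 2.76 to 3.47), the beta globins 3.55-fold higher (3.20 to 3.93) and Alas2 2.87-fold higher (1.91 to 4.30). Slc4a1 was read at most 3 times in a library and was too rare to test. Several genes that direct or complete red cell formation were also too rare to test. The erythroid transcription factor genes Gata1, Tal1 and Gfi1b, the globin chaperone gene Ahsp and the surface antigen gene Kel had at most 7 estimated reads in any library.

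The study made 6 poly(A) RNA libraries from epithelial cells of the mouse intestine, 3 labelled Git2-knockout and 3 wild-type, from mice aged 12 days. The titles name epithelial cells isolated from Git2-knockout or wild-type mice, the genotype field of the first group reads Git2 knockdown, and the design text calls all samples enteroids, which are epithelial cultures grown from crypts. No treatment, strain, sex, allele or number of animals is given for either group, and it is not stated whether a library is 1 animal or a pool. Epithelial markers were abundant in both groups: 12 listed genes summed to 10866 to 11254 CPM (reads per 1000000 reads of a library) in the libraries labelled Git2-knockout and to 12455 to 13051 CPM in wild-type. Of these, 10 fell and 0 rose, with a median log2 fold change of -0.24, where 27.4% of all tested genes fell. Of the 10 calls, 6 held in every alternative way of processing. Epcam, the pan-epithelial adhesion gene, was 1 of 2 that did not pass the test. It averaged 2509 CPM in the libraries labelled Git2-knockout and 2495 CPM in wild-type.

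Haemoglobin, the oxygen carrier of red blood cells, is built from alpha and beta globin chains that each hold a heme group. Mouse pups use the adult chains, encoded by neighbouring copies on chromosome 11 (alpha) and chromosome 7 (beta), while embryonic genes of the same clusters are silent by then. Mammalian red cells lose their nucleus but keep globin RNA for a while as reticulocytes, so globin transcripts in a tissue sample commonly come with blood. Because the samples are bulk RNA, more red cells and more globin RNA per cell cannot be told apart here.

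Libraries held 16284414 to 16837158 estimated reads in the group labelled Git2-knockout and 18753649 to 19106581 in wild-type. Git2, a scaffold for Arf and PIX proteins, was at 17.4, 15.5 and 16.8 CPM in the libraries labelled Git2-knockout and at 22.2, 23.7 and 22.7 CPM in wild-type, a partial decrease (log2 fold change -0.47, edgeR's quasi-likelihood test, Benjamini-Hochberg adjusted p = 4.44e-05). Where the deletion lies is not stated, and a transcript can persist without protein, so the label is not checked by it. Differences were widespread: 57% of the 13558 genes tested passed an adjusted p of 0.05, 29.6% upward and 27.4% downward. The members are therefore described by the size of their differences as well as by calls. Of the 6 members, 5 passed the filter on low counts and 4 of those rose, against the 29.6% of all tested genes that rose. Larger log2 fold changes than that of the summed globins were found in 0.885% of the other tested genes.

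The beta globins were uniformly higher. Hbb-bs, the main adult beta chain gene in these data, had 38.2, 34.4 and 36.1 CPM in the libraries labelled Git2-knockout, against 9.48, 9.47 and 10.1 CPM in wild-type. Its minor partner Hbb-bt had 5.93, 5.67 and 5.72 CPM in the libraries labelled Git2-knockout, against 1.83, 1.95 and 2.66 CPM in wild-type. For both genes every library labelled Git2-knockout lay far above every wild-type library. Such separation upward was found in 32.3% of all tested genes, and separation in either direction in 62.9%. On the log2 scale Hbb-bs rose by 1.90 ± 0.07 (SE; edgeR adjusted p = 8.37e-12) and Hbb-bt by 1.42 ± 0.15 (SE; edgeR adjusted p = 1.13e-06).

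**Figure D1:**
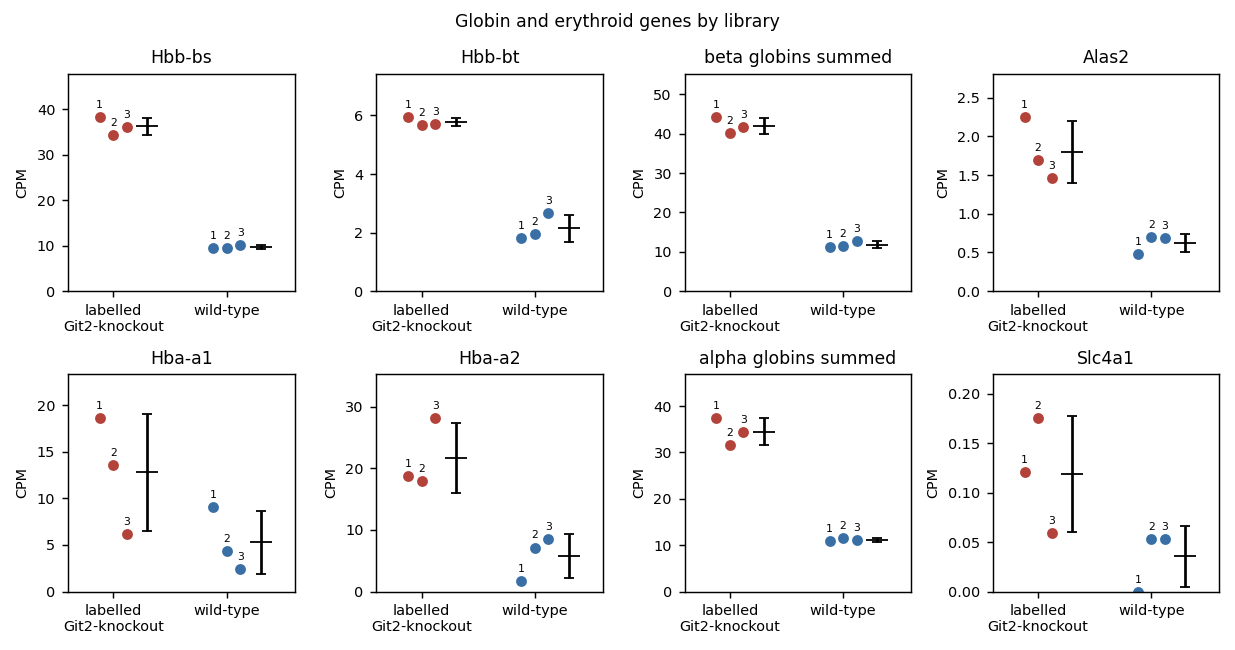
CPM of each member and of the summed beta and alpha globins by library, with the libraries labelled Git2-knockout on the left and wild-type on the right of each panel. Points are libraries with their replicate number, and bars are mean ± SD (n = 3 each). The summed globins, Hbb-bs, Hbb-bt and Alas2 separate the groups, whereas Hba-a1 overlaps and Slc4a1 rests on 0 to 3 reads.

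The copies of each globin share most of their sequence, which is why sums are used. In the GENCODE M21 transcripts of the GRCm38 assembly, the coding sequences of Hba-a1 and Hba-a2 are 429 bases long and differ at 1 base, C381T, counted from the A of the start codon with the Hba-a1 base first. Those of Hbb-bs and Hbb-bt are 444 bases long and also differ at 1 base, C417T, with the Hbb-bs base first. The stretches around these bases, coding bases 361 to 401 of the alpha genes and 397 to 437 of the beta genes, are shown 5′ to 3′ because they hold all the coding information that separates the copies, with the differing base in capitals.
Hba-a1: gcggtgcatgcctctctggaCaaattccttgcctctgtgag
Hba-a2: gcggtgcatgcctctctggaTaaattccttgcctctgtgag
Hbb-bs: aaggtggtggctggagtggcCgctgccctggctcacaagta
Hbb-bt: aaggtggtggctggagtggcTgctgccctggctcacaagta
An uninterrupted run of 380 coding bases is shared by the alpha copies and one of 416 by the beta copies, while the longest run common to Hba-a1 and Hbb-bs is 14 bases. Among 100-base windows of the coding sequence, 85.2% of those of Hba-a1 recur exactly in Hba-a2 and 91.9% of those of Hbb-bs recur in Hbb-bt. A read that lies in such a window cannot be assigned to its copy from the coding sequence. Whole transcripts, untranslated ends included, share less: of 50-base windows, 67.5% of those of Hba-a1 recur in Hba-a2 and 86.9% of those of Hba-a2 in Hba-a1, 65.8% of those of Hbb-bs in Hbb-bt and 58.3% of those of Hbb-bt in Hbb-bs. The remaining windows do separate the copies.

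The deposited estimates bear the mark of that sharing. Whole numbers, to within 0.05 of a read, were found for Hbb-bs in 1 of 6 libraries and for Hbb-bt in 1 of 6, but for their sum in 5 of 6. For Hba-a1 they were found in 2 of 6, for Hba-a2 in 1 of 6 and for the alpha sum in 4 of 6. Fractions of reads had thus been divided within each pair in most libraries.

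Division between the alpha copies varied far more than the alpha total. Hba-a1 had 18.6, 13.6 and 6.17 CPM in the libraries labelled Git2-knockout, against 9.05, 4.38 and 2.47 CPM in wild-type. Hba-a2 had 18.8, 18.0 and 28.2 CPM in the libraries labelled Git2-knockout, against 1.75, 7.15 and 8.55 CPM in wild-type. Groups overlapped for Hba-a1 and did not for Hba-a2. Hba-a1 took 49.8%, 43.1% and 18.0% of the alpha reads in the libraries labelled Git2-knockout and 83.8%, 38.0% and 22.4% in wild-type. The share thus differed widely between libraries of the same group, most of all in wild-type.

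Summed, the alpha globins varied less than either copy. They had 37.4, 31.6 and 34.4 CPM in the libraries labelled Git2-knockout, against 10.8, 11.5 and 11.0 CPM in wild-type, with no overlap. The coefficient of variation of the estimated count was 6.77% for the sum in the libraries labelled Git2-knockout, against 47.7% for Hba-a1 and 27.0% for Hba-a2. In wild-type it was 3.66% for the sum, against 63.4% for Hba-a1 and 61.9% for Hba-a2. In CPM, which allows for library size, the coefficient of variation of the sum was 8.53% in the libraries labelled Git2-knockout and 3.37% in wild-type. Counting error alone would give 4.15% for the sum in the libraries labelled Git2-knockout and 6.93% in wild-type.

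Tests followed these spreads. The alpha sum rose by 1.63 ± 0.08 on the log2 scale (SE; edgeR adjusted p = 1.31e-10). On its own row Hba-a1 had a log2 fold change of 1.27 (SE 0.66, edgeR adjusted p = 0.177), and Hba-a2 had 1.89 (SE 0.54, edgeR adjusted p = 0.0411). The Hba-a2 call was lost when replicate 1, 2 or 3 of the libraries labelled Git2-knockout was left out (edgeR adjusted p = 0.0802, 0.0835 and 0.119) and without wild-type replicate 2 or 3 (0.103 and 0.0538). No difference between the copies can be read from these rows.

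**Figure D2:**
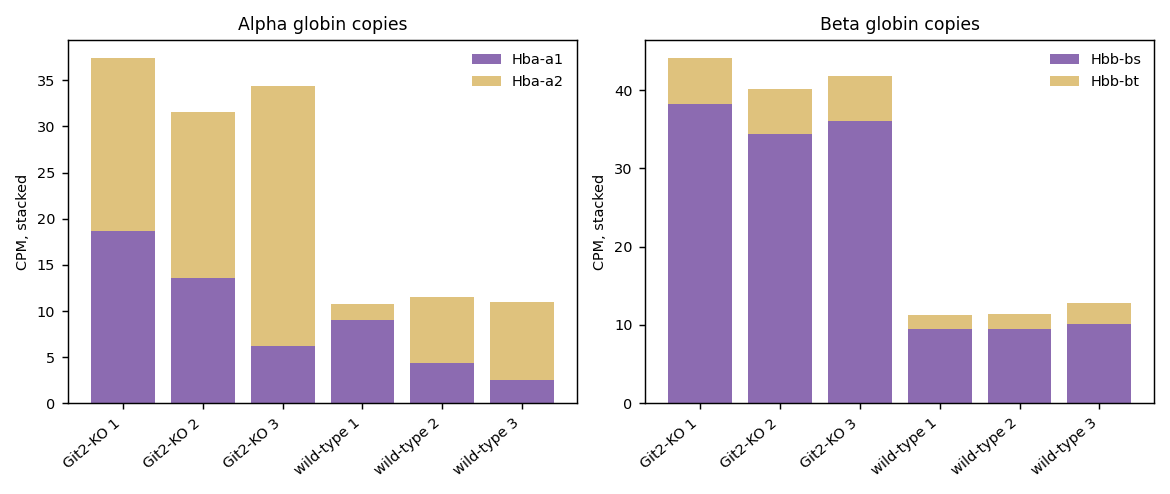
CPM of the alpha globin copies (left) and the beta globin copies (right), stacked, in each of the 3 libraries labelled Git2-knockout (Git2-KO) and the 3 wild-type libraries. The height of the alpha bars varies less within a group than the boundary between Hba-a1 and Hba-a2, with Hba-a1 at 18.0% to 49.8% of the alpha reads in the libraries labelled Git2-knockout and 22.4% to 83.8% in wild-type.

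The division of beta globin reads varied less between libraries. Hbb-bs took 86.6%, 85.9% and 86.3% of the beta reads in the libraries labelled Git2-knockout and 83.9%, 82.9% and 79.2% in wild-type. Summed, the beta globins had 44.1, 40.1 and 41.8 CPM in the libraries labelled Git2-knockout, against 11.3, 11.4 and 12.8 CPM in wild-type. The groups were far apart, and the sum rose by 1.83 ± 0.07 on the log2 scale (SE; edgeR adjusted p = 8.51e-12). With all 4 globins in 1 sum the level was 76.5 ± 4.97 CPM in the libraries labelled Git2-knockout and 23.0 ± 0.838 CPM in wild-type (SD, n = 3 each), a log2 fold change of 1.74 (SE 0.06, edgeR adjusted p = 3.34e-12).

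Both chains were present in near-equal amounts. Levels of different genes are compared in TPM, the authors' unit, which divides reads by transcript length and scales each library to 1000000. Alpha globins summed to 161, 142 and 153 TPM in the libraries labelled Git2-knockout and to 43.2, 45.5 and 43.1 TPM in wild-type. Beta globins summed to 165, 157 and 162 TPM in the libraries labelled Git2-knockout and to 39.3, 39.3 and 43.6 TPM in wild-type. The ratio of alpha to beta TPM was 0.976, 0.905 and 0.943 in the libraries labelled Git2-knockout and 1.10, 1.16 and 0.988 in wild-type, lower in every library labelled Git2-knockout than in any wild-type library. Its log2 difference was -0.20, with p = 0.1 by a two-sided exact permutation test over libraries, the smallest p that 3 against 3 can give, and 0.2 after Benjamini-Hochberg adjustment over 4 ratios. The ratio of Hbb-bs to Hbb-bt TPM averaged 6.18 ± 0.183 in the libraries labelled Git2-knockout and 4.54 ± 0.718 in wild-type (SD, n = 3 each), with the same exact permutation p of 0.1 and adjusted value of 0.2. Neither ratio passed the threshold in a design that cannot reach it.

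Globin RNA was a small part of either group. Together the 4 globins made up 0.0326%, 0.0300% and 0.0315% of all TPM in the libraries labelled Git2-knockout and 0.00825%, 0.00848% and 0.00867% in wild-type. Hbb-bs, the most abundant member, ranked 1353 of 18159 genes by mean TPM in the libraries labelled Git2-knockout and 4659 in wild-type. Alas2 ranked 11517 in the libraries labelled Git2-knockout and 12733 in wild-type. In mean TPM the order of the members in the libraries labelled Git2-knockout was Hbb-bs (139 ± 3.92), Hba-a2 (95.5 ± 25.7), Hba-a1 (56.5 ± 26.8), Hbb-bt (22.5 ± 0.0379), Alas2 (2.11 ± 0.420) and Slc4a1 (0.0600 ± 0.0300; SD, n = 3). Wild-type showed the same order, at 33.2 ± 1.01, 22.8 ± 14.0, 21.1 ± 13.7, 7.47 ± 1.51, 0.667 ± 0.127 and 0.0133 ± 0.0115 TPM (SD, n = 3). The ranges of the alpha copies overlapped in wild-type, and in the libraries labelled Git2-knockout they met at 80.5 TPM. Since reads are divided between these copies, their order is uncertain.

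Alas2, the X-linked gene for the erythroid form of the rate-limiting enzyme of heme synthesis, had 37.0, 29.0 and 24.9 estimated reads in the libraries labelled Git2-knockout, against 9, 13 and 13 in wild-type. In CPM these were 2.25, 1.70 and 1.47 in the libraries labelled Git2-knockout and 0.484, 0.694 and 0.692 in wild-type, without overlap. It rose by 1.52 ± 0.28 on the log2 scale (SE; edgeR adjusted p = 0.000196). On the log2(TPM + 1) scale, which understates changes of low genes, the change was 0.89 (limma-trend, adjusted p = 5.7e-05). Relative to the summed globin TPM, Alas2 stood at 0.786%, 0.678% and 0.550% in the libraries labelled Git2-knockout and 0.630%, 0.873% and 0.854% in wild-type (two-sided exact permutation p = 0.3, adjusted p = 0.4). The groups overlapped in this ratio.

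Slc4a1 encodes the chloride and bicarbonate exchanger that anchors the red cell skeleton to the membrane. It had 2, 3 and 1 estimated reads in the libraries labelled Git2-knockout and 0, 1 and 1 in wild-type. All libraries were at or under the limit of 3 reads that a count of 0 allows, so no fold change is given and no difference was detectable at this depth.

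Promoters of the members were searched for motifs known from red cell genes. GATA1 binds GATA motifs and KLF1 binds CACCC boxes, and both drive globin and Alas2 transcription. Windows of 250 bases before the RefSeq start (GRCm38.p6) were found for 5 of the 6 members, Slc4a1 excepted, and were searched on both strands. The GATA motif was counted where a window held AGATAA, the form with G as its last letter in place of A, or either form beginning with T in place of the first A. The KLF1 box was searched as CACCC, and the box of general activators near many promoters as CCAAT. For the TATA-like motif the main word was TATAAA, and a window also counted where C replaced the first T, or where the word was ATATAA, which can overlap the main word. The last 150 bases before the start are shown, 5′ to 3′ along the gene, with matches in capitals, since these genes moved together. They lie at chr7:103827929-103828078 (minus strand), chr7:103813924-103814073 (minus), chr11:32283522-32283671 (plus) and chrX:150547267-150547416 (plus), in the order shown, on an assembly older than the GRCm39 build named for the deposited table.
Hbb-bs: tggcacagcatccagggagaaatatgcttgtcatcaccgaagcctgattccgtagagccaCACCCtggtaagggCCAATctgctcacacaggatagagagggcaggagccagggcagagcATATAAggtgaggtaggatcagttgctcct
Hbb-bt: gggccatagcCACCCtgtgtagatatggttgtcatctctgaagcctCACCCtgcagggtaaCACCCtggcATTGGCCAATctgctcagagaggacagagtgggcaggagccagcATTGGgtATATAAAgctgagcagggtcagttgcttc
Hba-a1: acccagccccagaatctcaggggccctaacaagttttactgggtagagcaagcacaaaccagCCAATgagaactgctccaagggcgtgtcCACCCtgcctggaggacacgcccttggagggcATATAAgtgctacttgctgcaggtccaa
Alas2: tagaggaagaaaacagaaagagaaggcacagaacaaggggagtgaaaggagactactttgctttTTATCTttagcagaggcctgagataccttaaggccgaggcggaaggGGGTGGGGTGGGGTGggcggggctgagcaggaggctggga
Hba-a2 is not shown because its window shares an unbroken run of 247 bases with that of Hba-a1; the beta windows share no run longer than 14 bases.

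A CACCC match was present in all 5 windows, where 52% of 32841 promoter windows of the same length hold it. Hbb-bs had 1 match, 90 bases before the start, and Hbb-bt had 3, at 140, 104 and 89 bases. Hba-a1 and Hba-a2 had 2 each, and Alas2 had 3 on the opposite strand. GATA words were matched in 4 of the 5 windows, against 26.5% of all windows, at 86 bases before the start in Alas2 and 183 bases before it in Hba-a1. CCAAT occurred in the 4 globin windows and not in Alas2 (33.9% of all windows), and TATA-like words occurred in all 5 (24.4% of all windows). In the globin windows the TATA-like words lay 28 to 31 bases before the start, on the strand of the gene. The only one in Alas2 lay on the opposite strand, 209 bases before the start and outside the bases shown. These matches describe the letters only.

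Other globins with a row in the deposited table were close to absent, with 1 exception. Of 13 further globin genes 4 had a row in the table and 1 passed the filter on low counts. Those without a row cannot be assessed. Cygb, cytoglobin, a globin of fibroblast-like cells, had 1.98 ± 0.230 CPM in the libraries labelled Git2-knockout and 0.570 ± 0.134 CPM in wild-type (SD, n = 3 each), a rise of 1.78 on the log2 scale (edgeR, Benjamini-Hochberg adjusted p = 2.67e-05). Hbb-bh2, a beta-like gene of the embryonic part of the cluster, had 0 to 8.68 estimated reads per library. Myoglobin (Mb) had 0 to 3 and neuroglobin (Ngb) 1 to 4.

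The erythroid transcription factors did not rise as a list, and 3 of them were too rare to test. Of 14 listed factors 11 were tested, 1 rose and 4 fell, with a median log2 fold change of -0.02. Over all tested genes 29.6% rose, 27.4% fell and the median was 0.02. Gata1, the master regulator of the lineage, had 0 to 1 estimated reads per library, Gfi1b 1 to 3 and Tal1 1 to 7, and all were removed by the filter. Klf1, the activator of adult beta globin, averaged 0.639 CPM in the libraries labelled Git2-knockout and 0.525 CPM in wild-type, with a log2 fold change of 0.29 (edgeR, Benjamini-Hochberg adjusted p = 0.51). Nfe2 (0.64, edgeR adjusted p = 0.0682), Lmo2 (0.28), Zbtb7a (0.02), Foxo3 (-0.02) and Bcl11a (-0.06) did not pass the test either. The factors that fell are also used outside the red cell lineage: Zfpm1, a GATA cofactor (-0.38), Ldb1, a LIM-domain binding adaptor (-0.28), the cell cycle factor E2f2 (-0.27) and Myb, a factor of blood and crypt progenitors (-0.24). Sox6 rose (0.45). Of these calls only that of Zfpm1 held in every alternative, and on the log2(TPM + 1) scale the median of the list lay at 0.14.

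Heme synthesis genes other than Alas2 moved little, and more fell than rose. All 16 were tested, 2 rose and 7 fell, against 29.6% rising and 27.4% falling among all tested genes. The median log2 fold change was -0.12, and lay at 0.04 on the log2(TPM + 1) scale with 5 rising and 4 falling. Alas1, the housekeeping counterpart of Alas2, had 46.5 ± 1.44 CPM in the libraries labelled Git2-knockout and 48.5 ± 2.36 CPM in wild-type (SD, n = 3 each; log2 fold change -0.06, edgeR, Benjamini-Hochberg adjusted p = 0.377). Alad (-0.41), which acts after it in the pathway, and Tmem14c (-0.41), a porphyrin transporter, fell and held their calls in every alternative. Urod (-0.34) and the porphyrin transporter gene Abcb6 (-0.23) also fell. Fech, which inserts iron into the ring, was at 64.6 and 59.7 CPM (0.11) and Cpox at 47.7 and 50.9 CPM (-0.09), in the libraries labelled Git2-knockout and in wild-type, and neither passed the test.

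Red cell membrane genes were mostly below detection. Of 21 listed genes 13 were removed by the filter, with at most 12 estimated reads in a library, among them Rhag (0 to 4.33), Rhd (0 to 2), Kel (0 to 1), Icam4 (0 to 3), Cldn13 (0 to 1) and Add2 (0 to 2), and also Gypc (3 to 9), Ermap (6.40 to 11.9), Tmod1 (1.01 to 6.41), Aqp9 (1 to 5) and Slc14a1 (0 to 3.98). By group, Gypc had 7, 8 and 9 reads in the libraries labelled Git2-knockout, against 3, 3 and 4 in wild-type. Rhag went the other way, with 0, 1.01 and 0 reads in the libraries labelled Git2-knockout, against 2.08, 2.01 and 4.33 in wild-type. Neither was tested. Among the 8 tested, 2 rose and 1 fell, where 29.6% of all tested genes rose and 27.4% fell. Their median was 0.20 (-0.05 with length and GC trends removed). Aqp1, a water channel of red cells and of endothelium, had 74.6 ± 1.69 CPM in the libraries labelled Git2-knockout and 107 ± 5.91 CPM in wild-type (SD, n = 3 each). It fell by 0.52 on the log2 scale and held its call in every alternative. Xk (0.45) and Dmtn (0.38) rose, though Xk lay at 0.02 with length and GC trends removed and the Dmtn call was lost in 10 alternatives. The skeleton genes Ank1 (0.64), Sptb (0.34), Epb41 (0.05) and Epb42 (-0.12) and the mechanosensitive channel gene Piezo1 (-0.07) did not pass the test.

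Genes of erythroid signalling, iron uptake and maturation were split. Of 26 such genes 17 were tested, 5 rose and 7 fell, with a median of -0.11 (0.01 on the log2(TPM + 1) scale). The upward share was near the 29.6% of all tested genes that rose, where 27.4% fell. Absent or nearly so were Epor, the erythropoietin receptor gene (1 to 4.92 estimated reads), Ahsp (0 to 1), Trim58 (0 to 1), Hemgn (2 to 8.98) and Car1 (0 to 4). The mRNA-binding gene Cpeb4 (0.65) and the mitophagy receptor gene Bnip3l (0.36) rose, and the calls of both were lost with length and GC trends removed. Fhdc1 (-0.40), the peroxiredoxin gene Prdx2 (-0.26) and the ferrireductase gene Steap3 (-0.66) fell and held in every alternative.

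Genes that clear haemoglobin and heme fell more often than they rose. Of 12 measured, 10 were tested, 2 rose and 5 fell, against 29.6% rising and 27.4% falling among all tested genes. The median was -0.12 (0.03 on the log2(TPM + 1) scale). Hmox1, which breaks heme down, had 59.1 ± 2.58 CPM in the libraries labelled Git2-knockout and 74.4 ± 2.65 CPM in wild-type (SD, n = 3 each), a fall of 0.33 on the log2 scale (edgeR, Benjamini-Hochberg adjusted p = 4.56e-05). Flvcr2 fell by 0.40 on that scale. Both held in every alternative. Cd163, the haemoglobin scavenger receptor gene of macrophages, had 0 to 2.84 estimated reads.

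**Figure D3:**
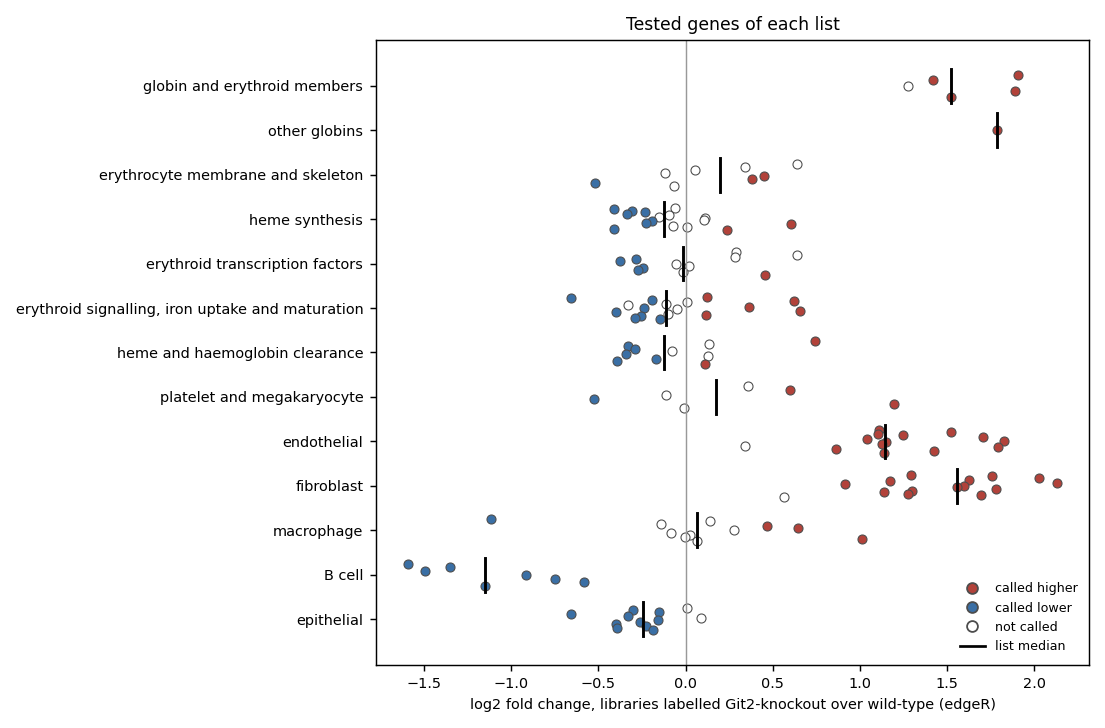
Log2 fold change (libraries labelled Git2-knockout over wild-type, edgeR) of every tested gene of each list shown, filled where the adjusted p was under 0.05, with the list median as a black bar. The pan-leukocyte and T cell, neutrophil and hepatocyte lists are not drawn. The globin and erythroid members (median 1.52) lie with the endothelial (1.14) and fibroblast (1.55) lists, while the heme synthesis (-0.12) and erythroid transcription factor (-0.02) lists lie near 0.

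Markers of cells that accompany blood vessels rose beside the globins, where 29.6% of all tested genes rose and 27.4% fell. Of 14 tested endothelial genes 13 rose and 0 fell, with a median log2 fold change of 1.14, and their summed level was 65.7 to 75.2 CPM in the libraries labelled Git2-knockout and 29.7 to 31.0 CPM in wild-type. Among them were Kdr (1.52), a growth factor receptor of endothelium, Flt1 (1.83) and Pecam1 (1.11). Fibroblast and smooth muscle genes summed to 163 to 173 CPM in the libraries labelled Git2-knockout and to 51.2 to 56.1 CPM in wild-type, and 14 of 15 tested rose and 0 fell, with a median of 1.55. The part of these cell types in the globin difference was not tested.

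Lists of other blood cells did not rise as a whole, beside 29.6% of all tested genes rising and 27.4% falling. Platelet and megakaryocyte genes summed to 15.6 to 17.4 CPM in the libraries labelled Git2-knockout and 15.8 to 18.3 CPM in wild-type. Of 6 tested, 2 rose and 1 fell, but 14 of 18 alternatives called 0 or 1 higher. Gp5 rose, at 1.76 ± 0.408 CPM in the libraries labelled Git2-knockout and 0.766 ± 0.161 CPM in wild-type (SD, n = 3 each; log2 fold change 1.19, edgeR adjusted p = 0.00135), and Gp1bb fell (-0.52), both platelet adhesion receptor subunits whose calls held in every alternative. The call of Itgb3 (0.60) was lost in 13 alternatives. Pf4, a platelet chemokine gene removed by the filter, had 8, 12 and 5 estimated reads in the libraries labelled Git2-knockout, against 3, 6 and 3 in wild-type, and the defining markers Ppbp and Tubb1 had 0 to 2. Pan-leukocyte and T cell genes summed to 28.3 to 31.1 CPM in the libraries labelled Git2-knockout and 31.9 to 32.2 CPM in wild-type, with 2 of 6 tested rising and 3 falling, of which only the call of Coro1a, which fell, held in every alternative. In the neutrophil list 0 of 3 tested genes passed, and S100a8 and S100a9 had at most 3 estimated reads. All 7 tested B cell genes fell (summed 8.08 to 9.23 CPM in the libraries labelled Git2-knockout and 19.2 to 20.1 CPM in wild-type). Macrophage genes summed to 138 to 140 CPM in the libraries labelled Git2-knockout and 236 to 239 CPM in wild-type. Most of that sum was Csf1r, at 90.7 CPM in the libraries labelled Git2-knockout and 197 CPM in wild-type. Csf1r was the 1 gene of 11 tested that fell, while 3 rose. Among those that rose, the calls of C1qa and C1qb held in every alternative. The median log2 fold change of the macrophage list was 0.06. The hepatocyte list, included because liver makes blood cells early in life, had Alb at 0 to 3 estimated reads. That list summed to 6725 to 8081 CPM in the libraries labelled Git2-knockout and to 6075 to 6393 CPM in wild-type. In it 3 of 10 tested genes rose and 1 fell, with a median log2 fold change of 0.06. Only the call of Ttr, which fell, held in every alternative.

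**Figure D4:**
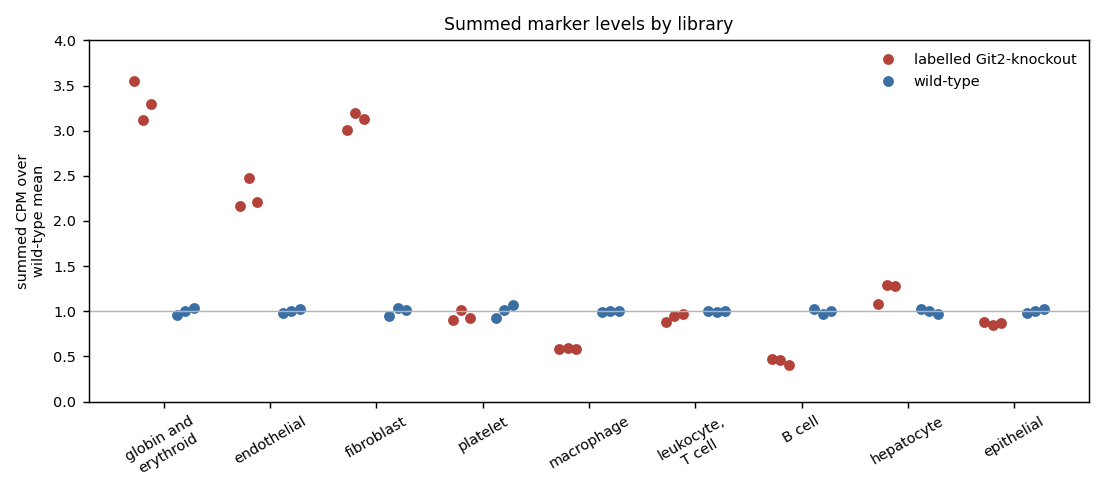
Summed CPM of each marker list shown in each library, divided by the wild-type mean of that list, with the 3 libraries labelled Git2-knockout left and the 3 wild-type libraries right. The neutrophil list and the erythroid lists other than the members are not drawn. Globin and erythroid genes stand at 3.11 to 3.55 times the wild-type mean in the libraries labelled Git2-knockout, fibroblast genes at 3.01 to 3.20, endothelial genes at 2.16 to 2.47 and platelet genes at 0.908 to 1.02.

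Other genes were ranked by how near their pattern over the 6 libraries lay to that of the summed globins. Nearness was the Euclidean distance between centred log2 CPM profiles, among 11425 genes whose log2 CPM averaged 1 or more, unnamed gene models left out. The symbol rule used for this also left out named genes whose symbols begin with C and a digit, such as C1qa. Igfbp3, a binding protein for insulin-like growth factors, was nearest (distance 0.0807), with 20.6, 18.3 and 18.2 CPM in the libraries labelled Git2-knockout, against 5.38, 5.71 and 5.96 CPM in wild-type. Wdfy1, an endosomal protein gene (0.174), the matrix protein gene Sparc (0.215), the collagen genes Col5a2 (0.227) and Col1a2 (0.230), Zc3h12c (0.238), the metalloproteinase gene Adamdec1 (0.254) and the caveolin gene Cav1 (0.256) followed. With groups of 3, such a distance reflects mostly a shared fold change between the groups.

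The globin difference was present under every way of processing that was tried. Over scalings, tests, filters, left-out libraries and trends removed, the log2 fold change of the summed globins ran from 1.66 to 2.20, that of the alpha sum from 1.54 to 2.15 and that of the beta sum from 1.76 to 2.19, and each passed an adjusted p of 0.05. The highest values came with the trends of fold change on transcript length and GC content removed. Hbb-bs, Hbb-bt and Alas2 passed wherever they were tested, while each alpha copy on its own row passed under some alternatives and missed under others.

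**Figure D5:**
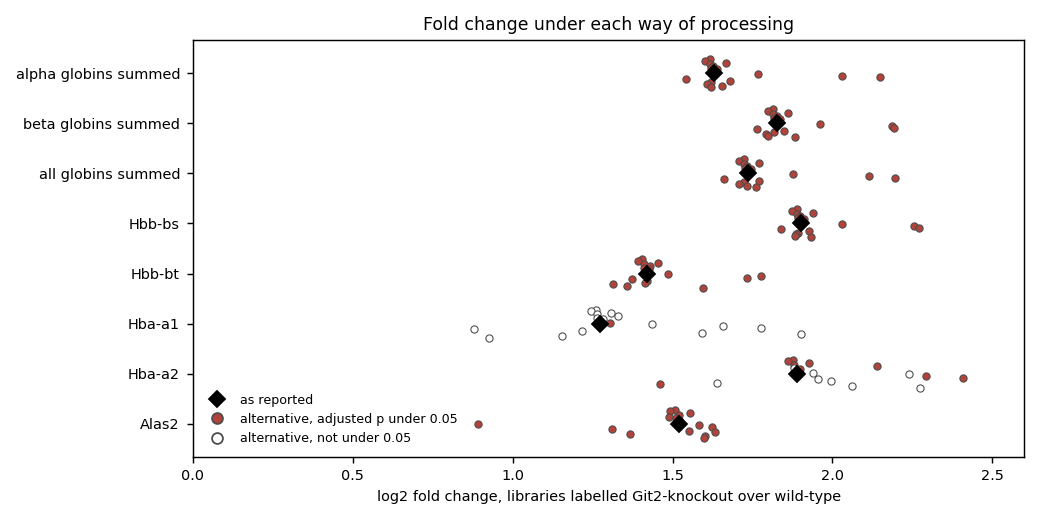
Log2 fold change (libraries labelled Git2-knockout over wild-type) of the globin sums and of each tested member as reported (diamonds) and under each alternative (circles, filled where the adjusted p was under 0.05). The sums stay between 1.54 and 2.20, while Hba-a1 spreads from 0.88 to 1.90 and is mostly unfilled.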

How the data were processed

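Per the file headers, the deposited table holds estimated counts, FPKM and TPM for each library, with the authors' group means, which were not used. HISAT, Bowtie2, RSEM and GRCm39 are listed, without versions, per the submitters' processing notes. Annotation and strand setting: not given in the sources used here. Counts deposited as fractions (58.9% to 69.2% of values per library) were rounded to whole numbers. FPKM as deposited by the authors served only to infer transcript length, and TPM as deposited by the authors to compare levels between genes.

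Genes were kept by filterByExpr (13558 of 18159), scaled by TMM and compared with edgeR 4.0.16 in R 4.3.3 (robust quasi-likelihood, two-sided, no covariates; Benjamini-Hochberg over all genes tested). Globin copies were summed before fitting, in a table otherwise the same. The SE was derived as log2 fold change over root F. Alternatives used limma 3.58.1, DESeq2 1.42.0, other filters and scalings, a replicate block, left-out libraries, and trends removed by loess (span 0.5). GC content came from GENCODE M21.

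The members, 15 gene lists, tests and naming rule (in each list up to 6 called genes by p and 3 others by expression) were chosen with earlier results of these data known. List counts are descriptions, and some list genes are counted but not reported here by name. Nothing says that libraries are separate animals, so p-values reflect only how much these samples vary, perhaps technically. Fold intervals come from the fit and include spread between libraries; the floor of 3 reads and counting errors cover counting only. Tested on simulated data of 13440 genes for the same contrast, edgeR recovered 96% of 2-fold and 100% of 4-fold changes.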

Additional observations from a re-analysis of the deposited data

How the results depend on the processing

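Globin sums, Hbb-bs, Hbb-bt and Alas2 kept direction and threshold in all alternatives that tested them; a filter of 5 CPM in 3 libraries removed Alas2. On its own row in place of the sums, Hba-a1 gave 1.27 (edgeR adjusted p = 0.177). Hba-a1 passed with a non-robust fit (adjusted p = 0.0127) and Hba-a2 was lost with no filter (0.053) and on the log2(TPM + 1) scale (0.0521). Leaving out a library gave log2 fold changes of 1.54 to 1.68 for the alpha sum, 1.76 to 1.88 for the beta sum and 1.66 to 1.77 for all globins, 3 or 4 members called, 3430 to 4082 genes called higher and 3150 to 4261 lower, and log2 differences in the alpha to beta ratio of -0.26 to -0.15. Genes called higher numbered 2259 with length and GC trends removed, against 4013, and genes called lower 1890 with limma-trend on log2(TPM + 1), against 3712; calls were then 36.3% and 75.3% upward, against 51.9%, with medians over all genes of -0.05 and 0.14. The cause was not tested.

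Some list genes changed sign with the trends removed. With the length trend removed Epb41 lay at -0.18, Zbtb7a at -0.22, Xpo7 at -0.20 and Lrp1 at -0.33, and with length and GC trends removed Epb41 lay at -0.18, Xpo7 at -0.29, Lrp1 at -0.16, Slc40a1 at -0.018 and Blvrb at 0.040.

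Deviations of same-numbered libraries had correlations near 0 (0.0409, -0.00113 and 0.0498), against -0.0682 to 0.033 for differently numbered libraries. The numbers were not taken as pairs, though 0.0498 and 0.0409 were the highest of these values. The Hba-a1 share of alpha reads also fell with replicate number in both groups. With a replicate block the alpha sum lay at 1.63, the beta sum at 1.83 and all globins at 1.73, Hba-a1 passed (adjusted p = 3.65e-06), Hba-a2 did not (0.0587), and 3863 genes were called higher and 3578 lower.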
